A study of Arabidopsis thaliana with 31 samples.

Results

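Single stele cells collected 16 h after the root tip was cut off were compared with stele cells collected just after the cut. The comparison holds 7 of the 31 samples of the series, chosen by their labels alone: 3 cells at 0 h and 4 cells at 16 h. All 7 came from Col-0 *Arabidopsis* seedlings at 7 days after stratification (DAS) that carried the lineage marker WOL:CRE-GR 35S:lox-CFP. In this line the stele promoter WOL drives a CRE recombinase that is held back until dexamethasone is given, and the recombination then lets the constitutive 35S promoter switch on CFP for good in the induced cell and its daughters. The mark therefore records where a cell came from and says nothing of what it had become by 16 h. Cells of both times were freed by cell wall digestion, picked singly under fluorescence, and their polyA RNA was amplified. The other samples of the series, 20 QC cells and 4 aliquots of pooled QC cells, were used only where named.

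The stele is the central cylinder of the root and holds the xylem, the phloem and the dividing cells that give rise to them. Its patterning rests on auxin, which is moved from cell to cell by PIN exporters and by AUX1/LAX importers, on cytokinin, which is sensed there by the WOL receptor, and on homeodomain leucine zipper proteins such as ATHB8 and PHB. When the tip is removed together with its stem cell niche, cells of the stump divide and form a new niche. Wounding of plant tissue is known to set off calcium signals, jasmonate and ethylene synthesis and a burst of transcription factor genes, many of which are quickly transcribed and quickly lost again. Digestion of the cell wall is itself a wound of this kind, and both times went through it.

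Each library held between 11637897 and 35185668 reads over 32678 loci, as recovered from the smallest step between its values, and listed between 11316 and 13452 genes. Levels are in FPM, reads per gene scaled to a total of 1000000 per library, and 1 read stood for 0.0284 to 0.0859 FPM. FPM is not scaled to gene length, so levels are compared between cells and not between genes. CFP, which was left out of the totals, was present in all 7 cells at 14.07 to 16.16 on the deposited log2 scale. No label names a plant for a cell and all roots shared a single plate, so each time counts as 1 sample, and no test or p-value is given. A difference is the median log2(FPM + 1) of the 16 h cells minus that of the 0 h cells. A gene is called higher or lower where its mean over the 7 cells was at least 10 FPM, the difference was at least 2 in size, which is 4-fold, and the cells of the 2 times did not overlap. A listed 0 can also be a gene that the authors removed for low coverage, and no fold is given against a group of zeros.

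The first library of each time stood apart. Every gene listed in 0 h replicates 2 and 3 was also listed in 0 h replicate 1, with 0 exceptions among 11962 and 11833 genes, and the same held for 16 h replicates 2 to 4 against 16 h replicate 1. A gene at 0 in the first library of a time was thus at 0 in all cells of that time. Zeros in all cells of a time are therefore not read as separate observations of each cell. The smallest listed value was 2 reads in both first libraries and 1 read in the others. At 0 h, 732 genes were listed in replicate 1 alone. Of these, 60 were at 50 FPM or more in 16 h replicate 1, and their level in 0 h replicate 1 was a median of 0.888% of it (quartiles 0.661% and 1.25%). In QC cell 15 the same comparison took in 111 genes and gave 1.04% (quartiles 0.831% and 1.28%), and in QC cell 20 it took in 87 genes and gave 0.471% with a much wider spread (0.163% and 2.68%). Low values in these 2 first libraries are therefore given as listed, and their source was not tested. As a check, counts over all genes are also given for genes above 0 in both first libraries and with both of them left out. For gene lists these counts are given in some cases only.

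**Figure D1:**
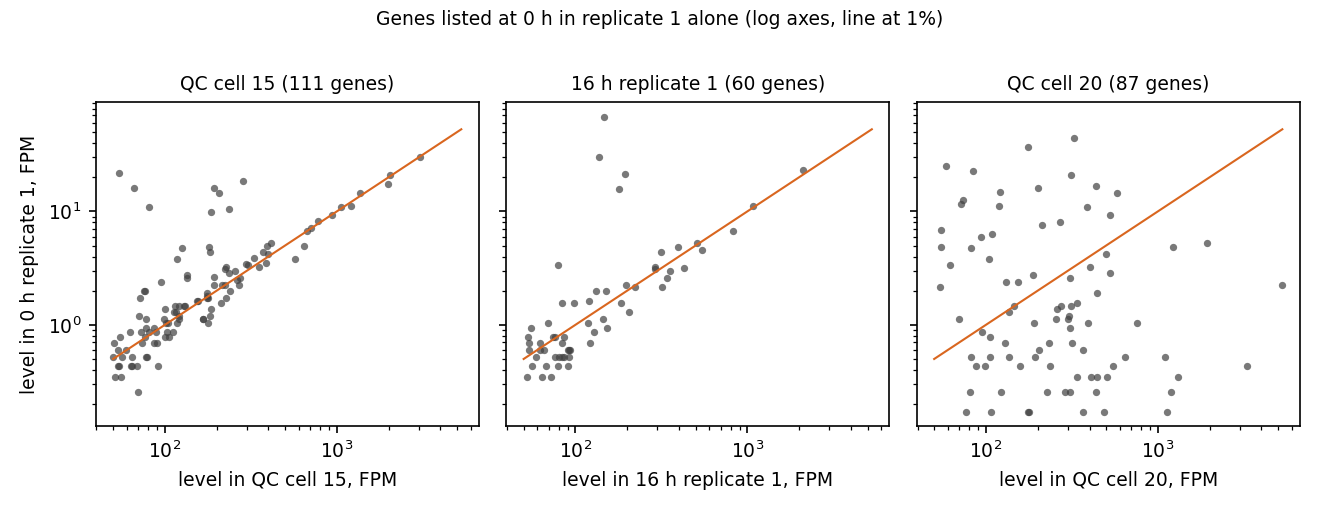
Each point is a gene listed at 0 h in replicate 1 alone and at 50 FPM or more in the library named on the horizontal axis. Both axes are in FPM on log scales and the line marks 1% of the level on the horizontal axis. The 111 genes of QC cell 15 and the 60 genes of 16 h replicate 1 lie along the line, with medians of 1.04% and 0.888%, while the 87 genes of QC cell 20 are scattered around it.

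Of 9554 genes tested, 555 were called higher at 16 h, which is 5.81%, and 688 were called lower, which is 7.20%. Counts called in a gene list below are to be read beside these shares. Among the 9097 tested genes above 0 in both first libraries, 352 were called higher (3.87%) and 509 lower (5.60%). With both first libraries left out, 846 of 9402 genes were called higher (9.00%) and 944 lower (10.0%), and with fewer cells an overlap is less likely. A called gene has no overlap between the times, so leaving cells out cannot turn its direction. Of the 555 and 688 genes, 505 and 579 were called again without the first libraries. In 203 of the genes called higher, the 0 h cells were all at 0, and in 179 of the genes called lower the 16 h cells were all at 0. Since each first library lists every gene of its time, these are the called genes that the count above 0 in both first libraries drops. That count is therefore not a separate check on low values in the first libraries. The median difference over all genes tested was -0.03, with quartiles of -1.31 and 1.11. Library set and time cannot be told apart, since each library belongs to 1 time. The same holds for the type and position of the picked cells. The lineage mark does not name a cell type within the stele, and the paper states that the cells' exact location is not established. With 3 cells at 0 h and 4 at 16 h, differences in vascular genes can also reflect which cells were picked. This was not tested.

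The genes that stood highest at 16 h relative to 0 h spanned sugar use, immune signaling and transcription. SUS1, a sucrose synthase that breaks sucrose down to feed metabolism, was at 3.61, 0.0711 and 0.0492 FPM in the 0 h cells and at 369, 189.9, 316 and 74.2 FPM in the 16 h cells, a difference of 7.84. The lowest 16 h cell was thus far above every 0 h cell. BIK1, a kinase that relays signals from immune receptors, was at 6.96, 0.782 and 1.43 FPM in the 0 h cells and at 616, 92.4, 1045 and 470.0 FPM in the 16 h cells. For both genes the highest of the 0 h cells was replicate 1, at about 1% of 16 h replicate 1. RAP2.6L, an ERF factor known from wound repair in stems, was at 42.7, 0.925 and 1.48 FPM in the 0 h cells and at 1373, 119.9, 615 and 443 FPM in the 16 h cells. WRKY6, a factor of senescence and defense, was at 6.87, 0.0356 and 0.0492 FPM in the 0 h cells and at 955, 8.33, 1785 and 42.4 FPM in the 16 h cells and so differed widely among the 16 h cells. CNGC15, a cyclic nucleotide-gated channel, was at 0.773, 0.569 and 0.492 FPM in the 0 h cells and at 90.8, 4.15, 746 and 443 FPM in the 16 h cells.

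A further 6 genes with large differences upward were less well characterized. AT3G22910, an auto-inhibited calcium ATPase also known as ACA13, was at 0.258, 1.46 and 0.590 FPM in the 0 h cells and at 23.5, 642, 442 and 920.2 FPM in the 16 h cells. AT2G41800, of unknown function, was at 3.01, 0.284 and 0.0984 FPM in the 0 h cells and at 378, 615, 427 and 271 FPM in the 16 h cells, and AT3G19200, an uncharacterized protein, was at 3.09, 0.605 and 0.394 FPM in the 0 h cells and at 424, 637, 24.8 and 468 FPM in the 16 h cells. AT5G40000, a P-loop nucleoside triphosphate hydrolase, and AT5G17980, a C2 domain protein, had differences of 8.32 and 7.67, again with no overlap of the times. The exception in evenness at 0 h was AT3G52870, an IQ calmodulin-binding protein, at 0.601, 0.747 and 53.7 FPM in the 0 h cells and at 93.0, 218, 476 and 264 FPM in the 16 h cells, where its difference of 7.11 was 4.62 without 0 h replicate 1 and 4.69 without 0 h replicate 2.

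The largest differences downward were found among vascular regulators, auxin transport and the jasmonate response. NAC045, a NAC factor known for the removal of the nucleus in sieve elements, was at 477, 2.35 and 466 FPM in the 0 h cells and at 1.38, 0, 0 and 0.556 FPM in the 16 h cells. The second 0 h cell was nearly as low as the 16 h cells, and the difference of -8.55 was -4.99 without 0 h replicate 1, -5.00 without 0 h replicate 3 and -5.31 without both first libraries. BRL2, a receptor kinase of the brassinosteroid receptor family that acts in vascular cells, was at 389, 90.0 and 346 FPM in the 0 h cells and at 5.74, 0, 1.83 and 0.727 FPM in the 16 h cells. WAT1, a tonoplast auxin transporter needed for secondary wall formation, was at 318, 778 and 220.0 FPM in the 0 h cells and at 23.2, 0, 0.366 and 2.39 FPM in the 16 h cells. LAX3, an auxin importer, was at 1532, 228 and 441 FPM in the 0 h cells and at 5.15, 3.81, 0.916 and 0.812 FPM in the 16 h cells, a difference of -7.19. In these 3 genes every 0 h cell was above every 16 h cell by a wide margin.

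AGP31, an arabinogalactan protein of vascular cell walls, was at 536, 599 and 111 FPM in the 0 h cells and at 59.5, 0.313, 0.0366 and 1.37 FPM in the 16 h cells. TIFY7, which is also known as the jasmonate repressor JAZ9, was at 212, 1.28 and 262 FPM in the 0 h cells and at 0.419, 0, 0 and 0.214 FPM in the 16 h cells, with the second 0 h cell again low. Its difference of -7.60 was -4.48 without 0 h replicate 1, -4.32 without 0 h replicate 3 and -4.62 without both first libraries. PUB19, a U-box ubiquitin ligase of stress signaling, was at 241, 156 and 181 FPM in the 0 h cells and at 1.42, 0.0568, 0 and 0.812 FPM in the 16 h cells, and AIB, a bHLH factor that responds to abscisic acid, was at 285, 113 and 330.4 FPM in the 0 h cells and at 1.76, 49.7, 0.513 and 1.03 FPM in the 16 h cells. RSH2, annotated as root hair specific, was at 589.7, 6.22 and 1238 FPM in the 0 h cells and at 1.67, 5.63, 0 and 1.11 FPM in the 16 h cells, and its difference of -7.96 was -4.78 without 0 h replicate 3. AT1G76240 and AT1G33470, an RNA-binding protein, had differences of -6.97 and -6.96. ATHB8 completes this set and is described with the vascular genes.

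**Figure D2:**
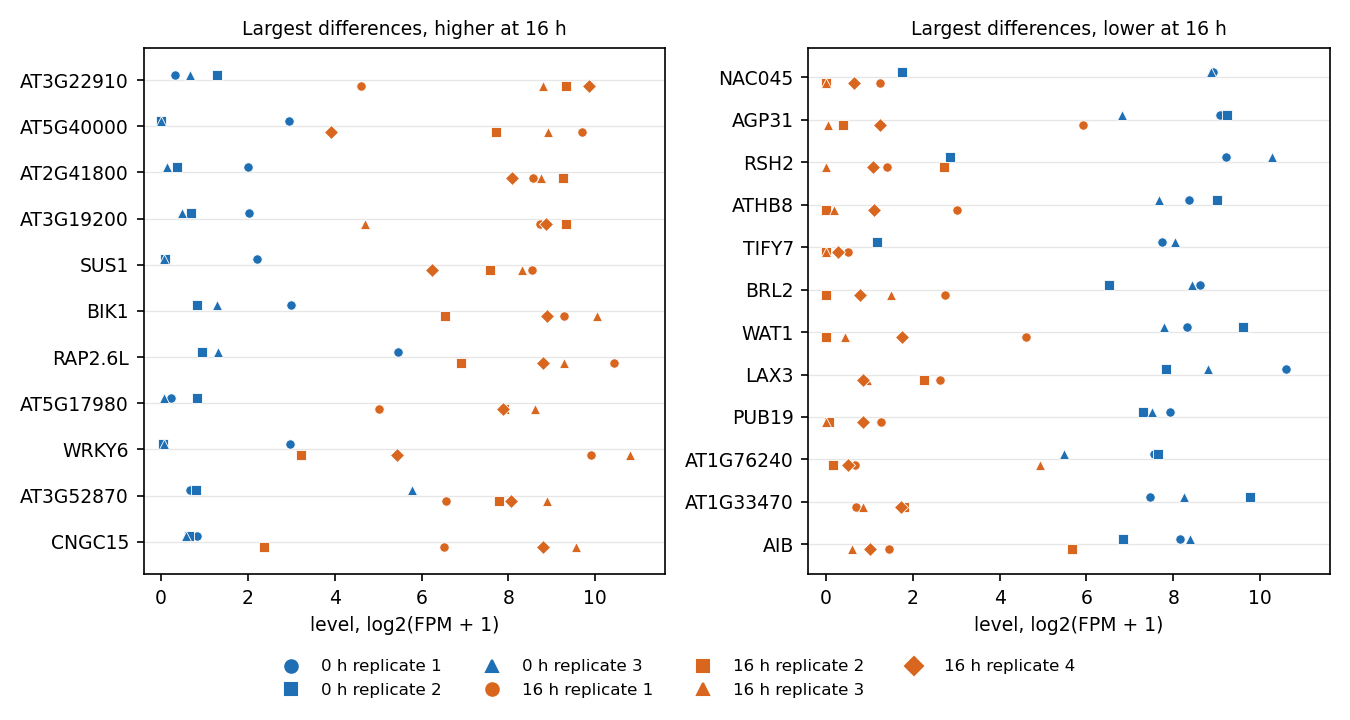
Levels as log2(FPM + 1) of genes with the largest differences in each direction among called genes above 0 in both first libraries, with 1 marker per cell, blue for 0 h and orange for 16 h. On the left every orange marker lies to the right of every blue one, and on the right the order is turned around. NAC045, RSH2 and TIFY7 have 1 blue marker, 0 h replicate 2, close to the orange ones.

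Genes of jasmonate synthesis, the pathway that turns plastid lipids into the wound hormone, were called lower at 16 h in 3 of 12 tested members, which is 25% against 7.20% over all genes, and higher in 0. LOX4, a lipoxygenase at its start, was at 91.9, 219 and 78.1 FPM in the 0 h cells and at 0.419, 7.99, 0.110 and 0.983 FPM in the 16 h cells. OPR3, the reductase that acts in peroxisomes, was at 427, 169.5 and 323 FPM in the 0 h cells and at 69.0, 17.6, 83.4 and 2.48 FPM in the 16 h cells. OPCL1, which activates the product for chain shortening, was at 242, 33.2 and 303 FPM in the 0 h cells and at 1.00, 20.8, 6.92 and 3.59 FPM in the 16 h cells. The median difference of the list was -2.58, but -1.29 without 0 h replicate 3, -1.66 without 16 h replicate 4 and -1.07 without both first libraries, and 10 of the 12 members lay below 0. The summed level overlapped between the times, with the highest value, 11139.5 FPM, in 16 h replicate 3. JAZ repressors hold jasmonate responses in check and are themselves induced by the hormone. The JAZ list was matched by symbol and so left out TIFY7, which was called lower as described above, and of its 7 tested members 1 was called lower, JAZ5, at 55.7, 36.7 and 52.8 FPM in the 0 h cells and at 0.209, 0.199, 25.8 and 0.128 FPM in the 16 h cells. MYC2, the bHLH factor that JAZ proteins bind, was at 449.9, 598 and 256 FPM in the 0 h cells and at 1.34, 95.8, 137 and 111 FPM in the 16 h cells and called lower with a difference of -2.11, which was -1.91 without 0 h replicate 1, -1.71 without 0 h replicate 2 and -1.81 without both first libraries, and so lost the call.

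Genes of the wound response differed in direction. AT1G12010, an oxygenase that was entered in the list of ethylene synthesis, was called higher. AT1G12010 was at 0.344, 0.284 and 0 FPM in the 0 h cells and at 38.5, 42.4, 75.6 and 79.8 FPM in the 16 h cells, so it was low in every 0 h cell and rather even at 16 h. Among 10 tested ERF factors of wounding and regeneration, RAP2.6L was called higher and 3 were called lower. ERF13 was at 202, 329.8 and 145 FPM in the 0 h cells and at 2.97, 6.62, 3.48 and 5.60 FPM in the 16 h cells. RRTF1, also known as ERF109 and quickly induced by wounding, was at 741, 545 and 477 FPM in the 0 h cells and at 3.18, 53.9, 1.28 and 62.2 FPM in the 16 h cells, and its difference of -5.17 was -3.32 without either 16 h replicate 1 or 16 h replicate 3 and -3.22 without both first libraries. ERF5 was at 2.84, 20.2 and 51.0 FPM in the 0 h cells and at 0 in all 4 cells at 16 h, and its mean was 8.98 FPM without 0 h replicate 2 and 3.84 FPM without 0 h replicate 3, under the minimum.

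Among auxin genes, the carriers held most of the calls. In the list of auxin transport and synthesis, 5 of 12 tested genes were called lower, which is 41.7% against 7.20% over all genes, and 0 higher, with a median difference of -4.96 (-4.11 without both first libraries). The PIN proteins export auxin from the cell. PIN3 was at 232, 318 and 105 FPM in the 0 h cells and at 5.65, 6.51, 1.83 and 5.09 FPM in the 16 h cells. PIN4 was at 126, 58.8 and 43.7 FPM in the 0 h cells and at 0.419, 0.199, 0 and 0.770 FPM in the 16 h cells, so both were far lower in every 16 h cell than in any 0 h cell. The summed level of the list ran from 1414 to 2801 FPM at 0 h and from 70.2 to 342 FPM at 16 h, with no overlap. Without 0 h replicate 1 the median was -3.52 and without 0 h replicate 3 it was -3.76.

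Of 13 tested Aux/IAA genes, which encode repressors that auxin removes and at the same time induces, 12 lay below 0 with a median of -3.02 (-1.51 without 16 h replicate 2 and -1.95 without 16 h replicate 4), and 2 were called lower (15.4% of the list). IAA12, known from vascular and embryo patterning, was at 195, 55.3 and 67.6 FPM in the 0 h cells and at 8.33, 12.4, 1.69 and 0.128 FPM in the 16 h cells. IAA7 was at 17.0, 3.80 and 67.4 FPM in the 0 h cells and at 0 in all 4 cells at 16 h, and without 0 h replicate 3 its mean was 3.47 FPM, under the minimum. With both first libraries left out, 7 of 12 tested members were called lower, beside 10.0% over all genes in that setting. 16 h replicate 1 carried a summed Aux/IAA level of 2099 FPM against 632 to 972 FPM in the other 16 h cells, and so overlapped with the 0 h range of 1873 to 2781 FPM. The GH3 list of auxin and jasmonate conjugating enzymes had 3 tested members and 0 called, and the SAUR list had 5 and 0.

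In the list of gibberellin and brassinosteroid genes 2 of 17 tested were called lower, which is 11.8% against 7.20% over all genes, and 0 higher (median -1.58). CPD, a cytochrome P450 of brassinosteroid synthesis, was at 607, 242 and 541 FPM in the 0 h cells and at 75.9, 35.3, 57.3 and 33.9 FPM in the 16 h cells, a difference of -3.56. BR6OX1, an oxidase of the same pathway, was at 17.7, 0.284 and 76.0 FPM in the 0 h cells and at 0 in all 4 cells at 16 h, and without 0 h replicate 3 its mean was 3.00 FPM, under the minimum. Of 11 tested cytokinin genes 0 were called in either direction. With both first libraries left out, 4 of 11 were called lower, beside 10.0% over all genes in that setting.

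Genes of the abscisic acid response, which prepare cells for water loss, were called higher in 2 of 11 tested members, which is 18.2% against 5.81% over all genes, and lower in 0, with a median of 1.95 that was 1.07 without 0 h replicate 1 and 0.85 without both first libraries. LTI78, also known as RD29A, was at 44.3, 32.4 and 131 FPM in the 0 h cells and at 1215, 844, 643 and 6080.5 FPM in the 16 h cells. LTI65, also known as RD29B, was at 1.29, 1.35 and 4.87 FPM in the 0 h cells and at 39.3, 28.1, 21.5 and 219.7 FPM in the 16 h cells. The highest 16 h cell was replicate 4 in both genes, which lie side by side in the genome. HB-7, a homeobox gene induced by the hormone, was at 1.03, 0.533 and 26.9 FPM in the 0 h cells and at 123, 181, 106 and 67.5 FPM in the 16 h cells. RD26, a NAC gene of the same response, was at 0 in all 3 cells at 0 h and at 32.7, 0.199, 42.0 and 137 FPM in the 16 h cells. Its call rested on the zeros listed at 0 h, since 16 h replicate 2 was close to 0. The genes named here go beyond the 2 called members of the list. AIB, described above as responding to abscisic acid, went the other way and was called lower.

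ASA1, the committed step from chorismate to tryptophan and indole compounds, was at 17.1, 56.8 and 18.7 FPM in the 0 h cells and at 1985, 1034, 873 and 1397 FPM in the 16 h cells, a difference of 5.93. The times were far apart and each was narrow. It was the 1 gene called among 11 tested in the tryptophan and camalexin list (9.09% against 5.81% over all genes), where 10 lay above 0, and the summed level was 245 to 1042 FPM at 0 h against 1459 to 3401 FPM at 16 h. Of 25 glutathione transferases, which attach glutathione to reactive compounds, 3 were called higher, which is 12.0% against 5.81%, and 0 lower, while 10 lay below 0. GSTF8 was at 87.0, 7.97 and 694 FPM in the 0 h cells and at 868, 1404, 3321 and 2238 FPM in the 16 h cells, and its difference of 4.33 was 2.84 without 0 h replicate 2. GSTZ1 was at 3.35, 10.8 and 0.197 FPM in the 0 h cells and at 30.8, 34.2, 74.9 and 23.3 FPM in the 16 h cells. The class III peroxidases gave 1 called higher and 2 lower of 8, with AT4G36430 at 0.687, 0.676 and 22.0 FPM in the 0 h cells and at 71.6, 25.1, 1018 and 401 FPM in the 16 h cells and PRXR1 at 1076, 861 and 462 FPM in the 0 h cells and at 3.35, 61.6, 18.4 and 62.6 FPM in the 16 h cells.

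UDP-glycosyltransferases, which attach sugars to hormones and defense compounds, split in both directions, with 3 called higher and 6 lower of 35. UGT76B1, known to act on a signal of salicylate defense, was at 37.5, 42.4 and 84.7 FPM in the 0 h cells and at 784, 894, 361 and 274 FPM in the 16 h cells. UGT87A2 was at 10.1, 0.142 and 7.92 FPM in the 0 h cells and at 392, 187, 78.9 and 117 FPM in the 16 h cells, and on the lower side AT1G06000 was at 50.2, 25.8 and 32.4 FPM in the 0 h cells and at 0.251, 10.8, 3.22 and 0.0428 FPM in the 16 h cells. The median of this list, -1.95, was -0.42, -1.03 and 0.02 without 0 h replicates 1, 2 and 3 and -1.24 without 16 h replicate 4, and so has no stable direction. Cytochrome P450 genes gave 2 called higher and 1 lower of 23, among them CYP705A18 at 0 in all 3 cells at 0 h and at 31.9, 34.5, 32.9 and 30.1 FPM in the 16 h cells, even across the 16 h cells. Heat shock proteins gave 2 called higher and 0 lower of 26. Without both first libraries they gave 7 and 1 of 27, beside 9.00% and 10.0% over all genes. The heat shock factors gave 1 called higher and 0 lower of 10. The factor was HSF4, at 128, 60.0 and 182 FPM in the 0 h cells and at 830.2, 236, 1394 and 910.5 FPM in the 16 h cells, whose values are the same in the overlapping locus AT4G36988. Among 5 tested defense proteins 2 were called higher, BIK1 and the small cysteine-rich protein LCR69, at 0.601, 0 and 0 FPM in the 0 h cells and at 91.0, 3.15, 26.7 and 2.01 FPM in the 16 h cells, whose mean was 5.41 FPM without 16 h replicate 1. Its difference of 3.42 was 2.05 without either 16 h replicate 1 or 16 h replicate 3. The 2 calls are 40.0% of the defense list, against 5.81% over all genes. Another 2 of the 5 had differences of 4-fold or more downward and were not called. Without both first libraries 1 of 4 was called higher.

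Ribosomal protein genes mostly had small differences above 0. Of 273 tested ribosomal protein genes, 245 had a difference above 0 and 28 below, and the median was 1.24 against -0.03 for all genes tested. Most stayed under the 4-fold limit: 25 were called higher, which is 9.16% of the list against 5.81% over all genes, and 1 was called lower. Without both first libraries the median was 1.18. The summed level shows how the cells differed, at 40514, 29913 and 33698 FPM in the 0 h cells and 101456, 100544, 29890 and 59654 FPM in the 16 h cells. Replicate 3 at 16 h thus stood at the level of the 0 h cells, and the others were above it. Many of these genes have near-identical copies between which reads can be shared, so single members are uncertain.

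Among the called ribosomal genes, AT1G80750, of the L30/L7 family, was at 2.06, 0.107 and 0.344 FPM in the 0 h cells and at 17.2, 31.6, 55.3 and 56.8 FPM in the 16 h cells. AT2G16360, annotated as a protein of the small subunit, was at 0 in all 3 cells at 0 h and at 52.2, 63.2, 12.2 and 21.2 FPM in the 16 h cells. The list was made from product names and took in some genes of organelle ribosomes. RPS1, of the plastid ribosome, was at 0 in all 3 cells at 0 h and at 25.3, 31.7, 22.3 and 2.52 FPM in the 16 h cells, and its mean fell under the minimum without 16 h replicate 1 (9.43 FPM), replicate 2 (8.36 FPM) or replicate 3 (9.93 FPM). The 1 gene called lower was AT3G22450, of the L18p/L5e family, at 22.7, 30.9 and 28.3 FPM in the 0 h cells and at 4.40, 0.142, 14.0 and 0.0855 FPM in the 16 h cells. Translation factors gave 1 called higher of 38, AT1G71350, a SUI1 family initiation factor, at 4.21, 0.0711 and 0.148 FPM in the 0 h cells and at 35.9, 46.7, 93.9 and 61.6 FPM in the 16 h cells, and 30 of the 38 lay above 0.

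Histone genes lay mostly above 0, with few of them called. Of 30 tested histone genes 25 lay above 0 with a median of 1.65 (1.10 without 0 h replicate 1 and 1.08 without 0 h replicate 3). Of these 30 genes, 4 were called higher (13.3%) and 1 lower (3.33%). Without both first libraries 9 of 31 were called higher and 1 lower, beside 9.00% and 10.0% over all genes. HTB1, a histone H2B, was at 0.687, 2.63 and 0.344 FPM in the 0 h cells and at 68.5, 88.9, 17.1 and 3.68 FPM in the 16 h cells. H2AXA, the variant that marks DNA breaks, was at 6.79, 8.18 and 0.344 FPM in the 0 h cells and at 49.3, 142, 97.2 and 133 FPM in the 16 h cells. AT3G53730 was at 1.37, 5.51 and 1.18 FPM in the 0 h cells and at 23.2, 194, 118 and 7.65 FPM in the 16 h cells, and AT5G59690 was at 3.09, 4.12 and 1.82 FPM in the 0 h cells and at 5.36, 345, 99.2 and 36.1 FPM in the 16 h cells. Histone gene copies are alike in sequence and share the same limit as the ribosomal genes. The histone called lower, AT3G27360, was at 9.54, 60.8 and 1.72 FPM in the 0 h cells and at 0 in all 4 cells at 16 h, and without 0 h replicate 2 its mean was 1.88 FPM. Summed histone levels were 670.1 to 1464 FPM at 0 h and 1103 to 5075 FPM at 16 h, so the times overlapped.

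In the list of DNA replication 4 of 25 genes were abundant enough to be tested, and these 4 were called higher. PCNA2, the sliding clamp that holds DNA polymerase on its template, was at 0.945, 10.8 and 0.344 FPM in the 0 h cells and at 48.3, 68.4, 38.7 and 284 FPM in the 16 h cells. LIG1, the ligase that seals the new strand, was at 6.10, 0.0711 and 0.148 FPM in the 0 h cells and at 24.7, 32.1, 7.88 and 52.5 FPM in the 16 h cells. ICU2, the catalytic subunit of DNA polymerase alpha, was at 0 in all 3 cells at 0 h and at 4.52, 5.06, 22.7 and 88.0 FPM in the 16 h cells, and without 16 h replicate 4 its mean was 5.38 FPM, under the minimum. PCNA1 was at 0 in all 3 cells at 0 h and at 2.51, 3.61, 1.39 and 71.8 FPM in the 16 h cells, and its call was lost without 16 h replicate 2 or 16 h replicate 4, with a mean of 1.25 FPM without the latter. 16 h replicate 4 was the highest cell in all 4 genes. A gene passed the filter here mainly through the 16 h cells, so the 4 are not the whole list, and the summed level of all 25 was higher in 0 h replicate 1, at 149 FPM, than in 3 of the 16 h cells, so the times overlapped.

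Of 27 genes of mitosis and cytokinesis 2 were tested and 1 was called lower, AUR1, the Aurora kinase of the spindle, at 4.38, 161 and 0.836 FPM in the 0 h cells and at 0 in all 4 cells at 16 h. Its level came from 0 h replicate 2, and without that cell the mean was 0.870 FPM. The summed level of the mitosis list was 296 FPM in 0 h replicate 2 and 3.04 to 75.2 FPM in the other 6 cells. Of 6 tested D-type cyclins and cyclin kinase inhibitors 0 were called. Splicing factors and small nuclear ribonucleoproteins gave 3 called higher and 1 lower of 39, with RUXF, the F protein of the spliceosome core ring, at 0.601, 0.0711 and 1.53 FPM in the 0 h cells and at 48.4, 81.0, 2.86 and 25.5 FPM in the 16 h cells.

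**Figure D3:**
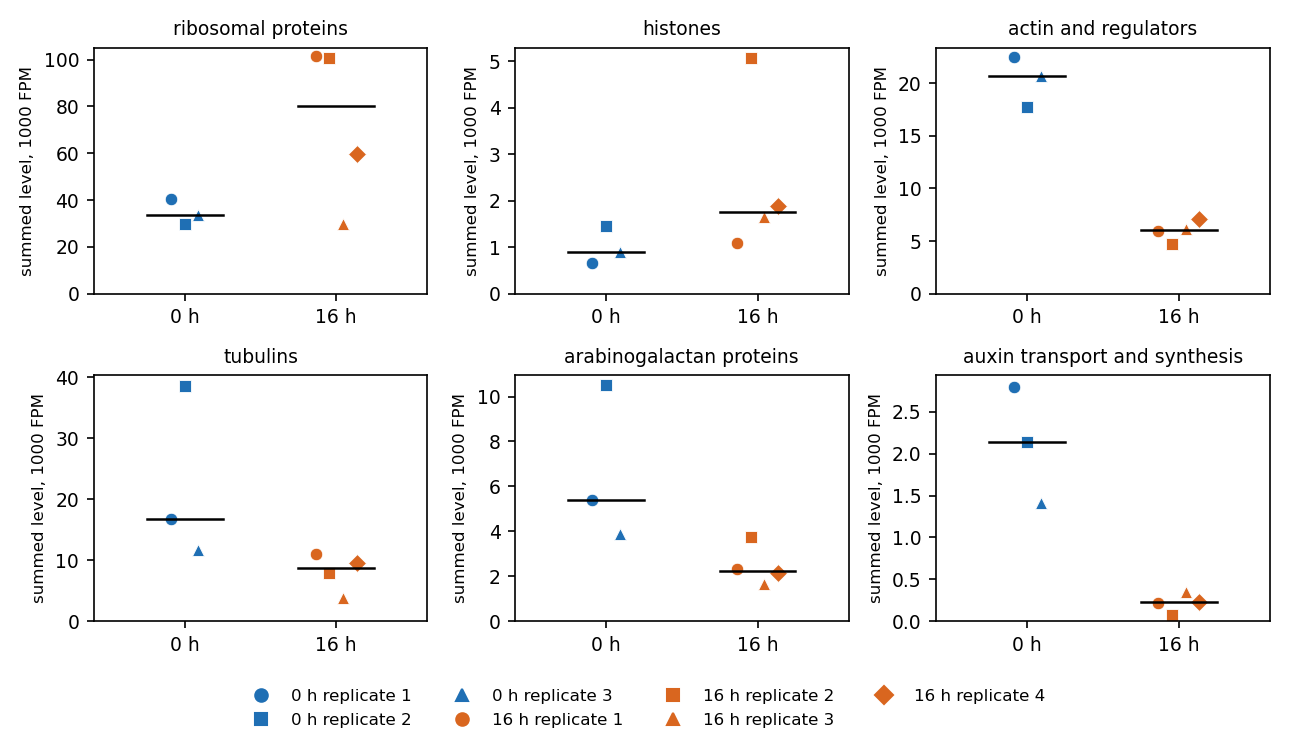
Summed level of all members of 6 gene lists in each cell, in units of 1000 FPM, with 1 marker per cell and a black line at the median of each time. The 0 h and 16 h cells are apart for actin and for auxin transport and synthesis, and for arabinogalactan proteins and tubulins. They overlap for histones and for ribosomal proteins, where 16 h replicate 3 lies among the 0 h cells.

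Of 28 tested genes of actin and its regulators 7 were called lower, which is 25% against 7.20% over all genes, and 2 higher, with 13 members above 0 and 15 below. ACT2, the main actin of vegetative tissue, was at 9807, 6399 and 7599 FPM in the 0 h cells and at 758, 775, 456 and 1272 FPM in the 16 h cells, a difference of -3.31. ACT11 was at 1460.1, 1557 and 966 FPM in the 0 h cells and at 92.5, 119, 89.1 and 185 FPM in the 16 h cells, and ACT12 was at 285, 197 and 328 FPM in the 0 h cells and at 35.6, 33.8, 47.6 and 64.4 FPM in the 16 h cells. ACT8 was at 5552, 2952 and 6826 FPM in the 0 h cells and at 755, 759, 1139 and 1158 FPM in the 16 h cells, and its difference of -2.58 was -1.98 without both first libraries. The actin genes are close relatives, and ACT2 and ACT8 share long stretches of sequence. The summed level of the list was 17737 to 22465 FPM at 0 h and 4742 to 7060 FPM at 16 h. On the higher side ARP9, an actin-related protein, was at 0.172, 0.818 and 0 FPM in the 0 h cells and at 38.1, 26.9, 29.5 and 22.1 FPM in the 16 h cells.

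Of 12 tested tubulin genes, which make up the microtubules, 11 lay below 0 with a median of -1.27, and 2 were called lower. TUB5, a beta-tubulin, was at 262, 476 and 233 FPM in the 0 h cells and at 40.5, 53.0, 23.6 and 36.6 FPM in the 16 h cells. TUA2, an alpha-tubulin, was at 2929, 7946 and 1823 FPM in the 0 h cells and at 868, 513, 255 and 1392 FPM in the 16 h cells, and its difference of -2.13 was -1.79 without 0 h replicate 2 and -1.75 without either 16 h replicate 2 or 16 h replicate 3. The summed tubulin level was 11607 to 38603 FPM at 0 h and 3808 to 11088 FPM at 16 h. The highest of all was 0 h replicate 2. Kinesins, the motors that run on microtubules, gave 2 called lower and 0 higher of 12, among them AT2G21380 at 26.3, 159.8 and 39.3 FPM in the 0 h cells and at 8.29, 14.4, 5.17 and 2.61 FPM in the 16 h cells, whose difference of -2.41 was -3.71 without both first libraries.

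Arabinogalactan proteins, sugar-rich proteins of the wall and cell surface, gave 10 called lower and 0 higher of 22, which is 45.5% against 7.20% over all genes, with a median of -2.89. The 4 members with the largest difference were AGP31, FLA12, AGP22 and FLA10. FLA12, known from secondary walls, was at 74.1, 139 and 6.45 FPM in the 0 h cells and at 0.293, 0, 0 and 0.257 FPM in the 16 h cells. The calls of AGP22 and FLA10 each rested on 1 cell, as the mean of AGP22 was 5.82 FPM without 0 h replicate 1 and that of FLA10 was 4.83 FPM without 0 h replicate 2. The summed level was 3897 to 10510.2 FPM at 0 h and 1666 to 3742 FPM at 16 h.

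Expansins, which loosen walls during growth, gave 3 called lower (27.3%) and 1 higher (9.09%) of 11. Without both first libraries they gave 3 called lower and 4 higher of 12, beside 10.0% and 9.00% over all genes. EXPA15 was at 743, 327 and 216 FPM in the 0 h cells and at 7.70, 0.426, 4.32 and 1.50 FPM in the 16 h cells. EXPB1 was at 306, 252 and 153 FPM in the 0 h cells and at 0.879, 7.82, 1.50 and 12.4 FPM in the 16 h cells, and EXPA11 was at 19.8, 239 and 140.1 FPM in the 0 h cells and at 0.0837, 12.5, 3.70 and 0.812 FPM in the 16 h cells. EXPB3, called higher, was at 0 in all 3 cells at 0 h and at 4.90, 41.1, 0.293 and 150.2 FPM in the 16 h cells, and without 16 h replicate 4 its mean was 7.72 FPM. The median of the list, -2.39, was -0.51 without 0 h replicate 1, -0.46 without 0 h replicate 3 and -0.20 without both first libraries. Pectin-modifying enzymes gave 8 called lower (28.6%) and 1 higher (3.57%) of 28. AT5G62360 was at 30.2, 31.5 and 585 FPM in the 0 h cells and at 0 in all 4 cells at 16 h and AT3G43270, the one called higher, was at 0.258, 0.284 and 0.0984 FPM in the 0 h cells and at 38.6, 206, 3.11 and 200.1 FPM in the 16 h cells, both of the pectin methylesterase inhibitor superfamily.

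All 10 tested genes of primary wall cellulose synthesis had a difference below 0, with a median of -1.36 that was -0.91 without 16 h replicate 1 and -0.69 without 16 h replicate 3. The 1 called lower was CESA6, a subunit of the cellulose synthase complex, at 446, 680.2 and 335 FPM in the 0 h cells and at 64.4, 300.4, 128 and 92.7 FPM in the 16 h cells. Its difference of -2.02 was at the limit, and was -1.82 without 0 h replicate 2 and -1.79 without either 16 h replicate 1 or 16 h replicate 4, and -1.89 without both first libraries. Xyloglucan endotransglucosylases gave 1 called lower of 8, XTH8, with a difference of -2.61 that was -1.41 without either 16 h replicate 1 or 16 h replicate 3 and -1.27 without both first libraries. Laccases gave 1 called lower of 2, and extensins and related proteins 2 called higher and 2 lower of 40. In the list of secondary wall and xylem genes all 7 tested were below 0 and 3 were called lower. NAC076, a NAC factor of xylem vessels also known as VND2, was at 35.2, 413 and 122 FPM in the 0 h cells and at 0.167, 0, 0 and 1.50 FPM in the 16 h cells. NAC105, also known as VND3, was at 23.3, 25.1 and 20.8 FPM in the 0 h cells and at 13.4, 0, 0 and 0.128 FPM in the 16 h cells, and its mean was 9.92 FPM without 0 h replicate 1 and 9.61 FPM without 0 h replicate 2.

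**Figure D4:**
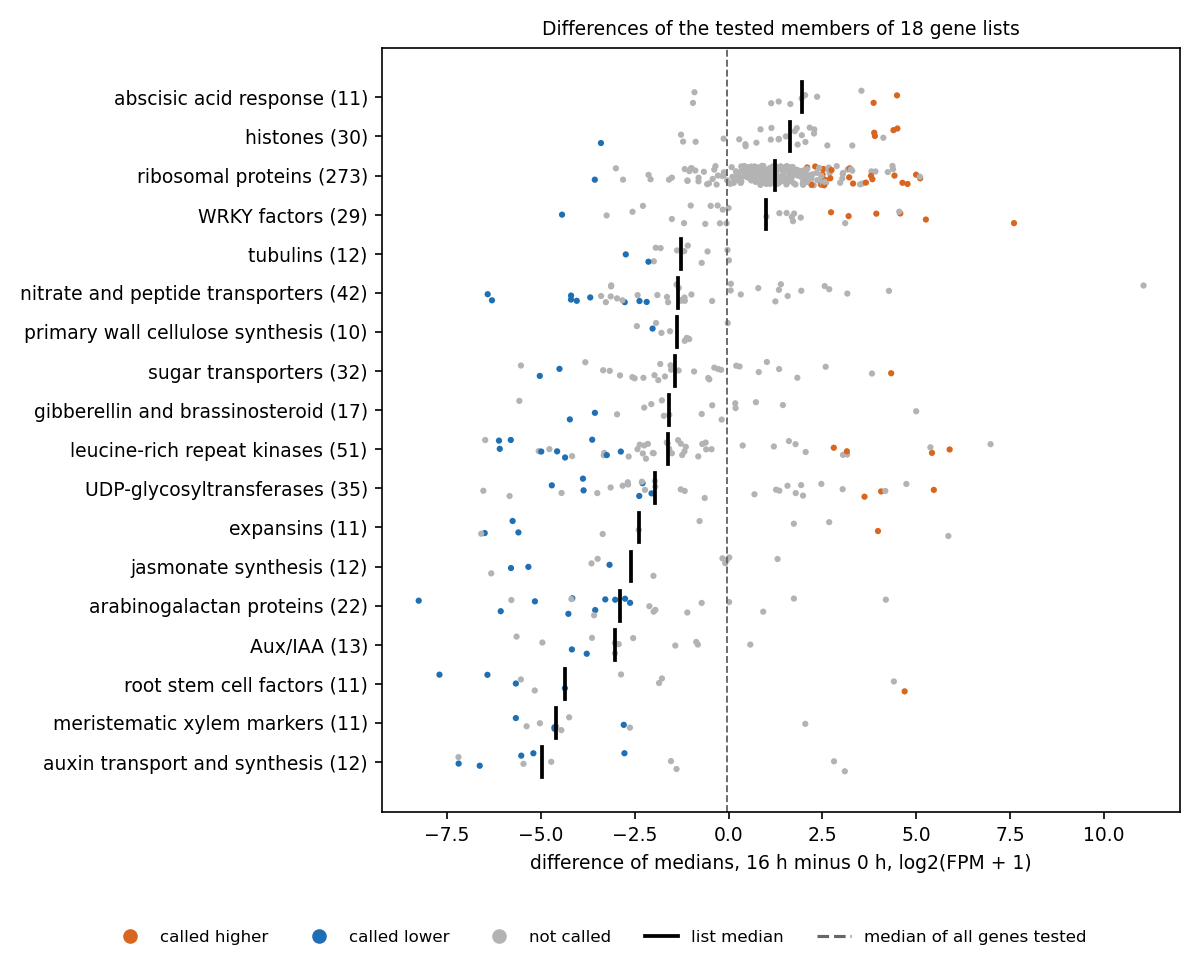
Difference between the times, 16 h minus 0 h in log2(FPM + 1), of each tested gene in the 18 gene lists with at least 10 tested members and a median at least 1 from that of all genes. Points are genes, coloured where called, black bars are list medians and the dashed line is the median over all genes tested, -0.03. Ribosomal proteins, histones, WRKY factors and the abscisic acid response have medians to the right of that line, and auxin, stem cell, wall and tubulin lists have theirs to the left.

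Most transcription factor families held called genes in both directions, and so did all genes tested, at 5.81% higher and 7.20% lower. Shares higher and lower were 15.6% and 12.5% for NAC, 33.3% and 11.1% for DOF, and 5.13% and 15.4% for AP2/ERF factors. They were 11.8% and 5.88% for GRAS and for MYB factors, and 8.33% and 20.8% for homeobox factors. The bZIP and bHLH factors gave 9.38% and 11.4% in each direction. In lists this short, shares near those over all genes are not read as a trait of the family. Of 29 tested WRKY genes, which bind promoters of defense and senescence genes, 6 were called higher, which is 20.7% against 5.81% over all genes, and 1 lower, with a median of 1.01. That median was 0.12 without 16 h replicate 1, 0 without 16 h replicate 3, and 1.59 and 1.53 without 0 h replicate 3 and 16 h replicate 2. WRKY32 was at 0.344, 2.45 and 0.738 FPM in the 0 h cells and at 49.3, 86.6, 31.6 and 131 FPM in the 16 h cells, and WRKY21 was at 3.95, 6.76 and 4.53 FPM in the 0 h cells and at 95.4, 199, 73.1 and 39.9 FPM in the 16 h cells. WRKY46, quickly induced by defense signals, was the one called lower, at 179, 172 and 206 FPM in the 0 h cells and at 2.76, 40.6, 17.5 and 0.812 FPM in the 16 h cells. Of 32 NAC genes 5 were called higher and 4 lower. NAC096 was at 0.516, 0.0711 and 0.0492 FPM in the 0 h cells and at 34.9, 79.3, 691 and 95.6 FPM in the 16 h cells, and NAC13, a regulator of the response to mitochondrial stress, was at 0.430, 0 and 0.0492 FPM in the 0 h cells and at 39.3, 22.0, 98.1 and 12.6 FPM in the 16 h cells. NAC089 was at 0.687, 0.142 and 0 FPM in the 0 h cells and at 27.8, 46.0, 29.8 and 10.7 FPM in the 16 h cells, and NAC102, which stayed well expressed at both times, was at 1937, 2427 and 1031 FPM in the 0 h cells and at 875, 358, 189 and 78.8 FPM in the 16 h cells.

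Of 9 tested DOF genes, a plant zinc finger family with many members in vascular tissue, 3 were called higher and 1 lower. Of these genes 7 were above 0 in both first libraries. Among the 7, 1 was called higher and 1 lower, beside 3.87% and 5.60% over all such genes. AT2G34140 was at 6.44, 0.249 and 13.3 FPM in the 0 h cells and at 248, 504, 525 and 83.0 FPM in the 16 h cells. AT1G29160 was at 0 in all 3 cells at 0 h and at 23.2, 88.8, 74.9 and 111 FPM in the 16 h cells. The one called lower, AT4G24060, was at 169, 427 and 300.5 FPM in the 0 h cells and at 6.91, 17.2, 17.6 and 82.6 FPM in the 16 h cells. AP2/ERF factors gave 2 called higher and 6 lower of 39, among them LEP, a leaf and meristem factor, at 1.03, 0 and 0 FPM in the 0 h cells and at 69.6, 65.9, 126 and 1.24 FPM in the 16 h cells, with 16 h replicate 4 nearly as low as 0 h replicate 1. AT1G44830 was lower, at 253, 336 and 321 FPM in the 0 h cells and at 84.5, 26.5, 0.256 and 1.41 FPM in the 16 h cells. GRAS factors gave 2 called higher and 1 lower of 17, with PAT1, a factor of phytochrome signaling, at 6.87, 0.925 and 0.0984 FPM in the 0 h cells and at 33.6, 66.7, 49.8 and 254 FPM in the 16 h cells. HAM1, which keeps meristem cells undifferentiated, was at 51.0, 1.53 and 148 FPM in the 0 h cells and at 198, 272, 215 and 296 FPM in the 16 h cells, and its difference of 2.22 was 1.46 without 0 h replicate 2, 3.64 without 0 h replicate 1, 4.40 without 0 h replicate 3 and 3.81 without both first libraries.

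The homeobox list gave 2 called higher and 5 lower of 24, with HAT14 at 73.0, 22.2 and 178 FPM in the 0 h cells and at 8.04, 0, 0.0366 and 0.299 FPM in the 16 h cells. The bZIP factors gave 3 called in each direction of 32, among the lower ones BZIP61 at 77.8, 356 and 23.6 FPM in the 0 h cells and at 0.209, 4.66, 0.843 and 1.07 FPM in the 16 h cells and bZIP52 at 63.2, 82.9 and 66.9 FPM in the 0 h cells and at 0.963, 2.61, 2.05 and 1.24 FPM in the 16 h cells. The bHLH factors gave 4 in each direction of 35. Among the 32 above 0 in both first libraries, 1 was called higher and 4 lower, beside 3.87% and 5.60% over all such genes. FBH1, an activator of flowering, was at 0 in all 3 cells at 0 h and at 21.5, 26.1, 16.3 and 77.7 FPM in the 16 h cells, and AT1G10120 was at 114, 254 and 155 FPM in the 0 h cells and at 0.377, 22.2, 3.41 and 1.03 FPM in the 16 h cells. MYB factors gave 4 called higher and 2 lower of 34. LBD factors gave 0 called of 2.

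Leucine-rich repeat kinases, the largest family of plant receptors, gave 9 called lower (17.6% against 7.20% over all genes) and 4 higher of 51, and 38 of the 51 lay below 0 with a median of -1.62. AT5G01890 was at 404, 399 and 176 FPM in the 0 h cells and at 8.33, 0.341, 10.3 and 2.69 FPM in the 16 h cells, and AT4G36180 was at 129.6, 89.6 and 18.5 FPM in the 0 h cells and at 0.335, 5.17, 0.989 and 0.171 FPM in the 16 h cells. AT5G10020 was at 127, 196 and 72.4 FPM in the 0 h cells and at 0.419, 42.7, 0.989 and 0.727 FPM in the 16 h cells, with 16 h replicate 2 apart from the other 16 h cells. On the higher side LRR XI-23 was at 4.04, 3.80 and 9.50 FPM in the 0 h cells and at 167, 279, 92.6 and 274 FPM in the 16 h cells. Calcium sensors gave 3 called lower and 0 higher of 49, a share of 6.12% that is close to that over all genes, and 29 lay above 0. CML38, a calmodulin-like protein induced by wounding, was at 193, 25.9 and 168 FPM in the 0 h cells and at 6.70, 13.5, 1.43 and 3.21 FPM in the 16 h cells, a difference of -4.89. AT1G76640, an EF-hand protein also known as CML39, was at 68.5, 48.9 and 315 FPM in the 0 h cells and at 0.377, 41.4, 0.513 and 0.470 FPM in the 16 h cells, and again 16 h replicate 2 was close to the 0 h range.

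Mitogen-activated protein kinases and the kinases above them gave 4 called lower (13.8%) and 1 higher (3.45%) of 29. MAPKKK16 was at 52.0, 210.1 and 23.3 FPM in the 0 h cells and at 20.8, 3.67, 0.0366 and 1.84 FPM in the 16 h cells. The calls of MPK1, MPK2 and MAPKKK18 were each lost without at least 1 cell: the mean of MPK1 was 9.43 FPM without 0 h replicate 2, the difference of MPK2 was -1.74 without 0 h replicate 2, -1.64 without 0 h replicate 3 and -1.98 without either 16 h replicate 2 or 16 h replicate 3, and that of MAPKKK18 was -1.91 without 0 h replicate 3 and -1.57 without either 16 h replicate 1 or 16 h replicate 3. Signaling peptides gave 2 called lower of 8. RALFL22, of the RALF family that raises the pH of the wall, was at 38.7, 28.6 and 49.7 FPM in the 0 h cells and at 0 in all 4 cells at 16 h. Cysteine-rich receptor kinases gave 0 called of 5, although all 5 lay above 0.

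The major facilitator list holds nitrate and peptide carriers along with others of the superfamily. There 9 of 42 were called lower, which is 21.4% against 7.20% over all genes, and 0 higher, with a median of -1.35 that was -0.75 without 0 h replicate 2 and -0.84 without 16 h replicate 4. Without both first libraries 9 of 37 were called lower and 5 higher, beside 10.0% and 9.00% over all genes. AT1G52190 was at 132, 285 and 52.7 FPM in the 0 h cells and at 0.670, 0.711, 0.0366 and 1.07 FPM in the 16 h cells, a difference of -6.30. Sugar transporters gave 2 called lower (6.25%) and 1 higher (3.12%) of 32 with a median of -1.43, which was -0.42 without 0 h replicate 2. ABC transporters gave 3 called lower and 1 higher of 17. ABCC3, a vacuolar pump for conjugated compounds, was at 5.16, 1.81 and 8.66 FPM in the 0 h cells and at 187, 235, 114 and 80.8 FPM in the 16 h cells, and ABCG35 was at 636, 407 and 401 FPM in the 0 h cells and at 72.6, 90.0, 58.2 and 223 FPM in the 16 h cells. Aquaporins gave 1 called lower of 21, DELTA-TIP, a water channel of the vacuole, at 588, 347 and 542 FPM in the 0 h cells and at 33.0, 40.6, 56.2 and 1.33 FPM in the 16 h cells. Of 14 proton pump genes 0 were called.

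Nitrogen metabolism differed gene by gene, with 2 called higher and 2 lower of 18. Asparagine synthetases load nitrogen onto asparagine for storage and transport. ASN2 was at 30.2, 0.0711 and 0.0984 FPM in the 0 h cells and at 78.5, 89.3, 43.5 and 71.3 FPM in the 16 h cells, and its difference of 6.11 was 3.70 without 0 h replicate 2 and 3.71 without 0 h replicate 3. ASN3 was at 1.03, 0.107 and 5.90 FPM in the 0 h cells and at 36.5, 54.3, 8.02 and 58.0 FPM in the 16 h cells. Both genes of nitrate reductase, the entry of nitrate into metabolism, were called lower. NIA2 was at 156, 8.75 and 106 FPM in the 0 h cells and at 0.419, 5.26, 1.25 and 0.299 FPM in the 16 h cells, and its difference of -5.91 was -3.85 without both first libraries. NIA1 was at 64.0, 0.320 and 53.1 FPM in the 0 h cells and at 0.251, 0, 0 and 0.0428 FPM in the 16 h cells, and without 0 h replicate 1 its mean was 8.95 FPM. In both genes 0 h replicate 2 lay near the 16 h cells.

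Glycolysis gave 1 called lower of 15, PFK2, and the mitochondrial respiratory chain 2 called higher of 62, COX15 and SURF1. These 3 calls were each lost without at least 1 cell: the difference of PFK2 was -1.93 without either 16 h replicate 3 or 16 h replicate 4 and its mean 9.65 FPM without 0 h replicate 2, the mean of COX15 was 9.93 FPM without 16 h replicate 2, and SURF1, at 0 in all 0 h cells, was under the 4-fold limit without either 16 h replicate 2 or 16 h replicate 4. The difference of COX15, 3.77, was 2.19 without either 16 h replicate 2 or 16 h replicate 4. Of 4 tested genes of the hypoxia response 2 were called higher, SUS1 and SUS4, beside 5.81% over all genes. The other 2 had differences of 4-fold or more downward and were not called, so the list has no common direction. Without both first libraries 1 of 3 was called higher, beside 9.00% over all genes. SUS4, a second sucrose synthase, was at 0 in all 3 cells at 0 h and at 27.8, 15.2, 22.5 and 5.81 FPM in the 16 h cells, and its mean was 7.25, 9.34 and 8.13 FPM without 16 h replicates 1, 2 and 3. The proteasome gave 1 called higher of 31, autophagy 1 lower of 9, the circadian clock 1 higher of 12, lipid transfer proteins 1 lower of 8 and photosynthesis 1 lower of 4. The lists of carbon starvation (16 tested), antioxidant enzymes (18), endoplasmic reticulum chaperones (19), phenylpropanoid and lignin synthesis (11), phosphate starvation (5) and suberin (1) gave 0 calls in either direction.

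In the list of root stem cell and stele factors 4 of 11 tested were called lower, which is 36.4% against 7.20% over all genes, and 1 was called higher, with a median of -4.36. ATHB8, a homeodomain leucine zipper gene of the procambium, was at 325, 515 and 204 FPM in the 0 h cells and at 7.16, 0, 0.147 and 1.15 FPM in the 16 h cells, a difference of -7.70. ATHB-15, of the same family, was at 373, 29.1 and 233 FPM in the 0 h cells and at 2.26, 1.25, 9.01 and 1.28 FPM in the 16 h cells. PHB, which sets xylem cell fate, was at 146, 35.4 and 129 FPM in the 0 h cells and at 1.72, 13.7, 1.21 and 14.2 FPM in the 16 h cells, and its difference of -4.36 was -2.22 without both first libraries. SHR, which is made in the stele and moves outward, was at 49.7, 149 and 25.6 FPM in the 0 h cells and at 0 in all 4 cells at 16 h. The one called higher was AIL6, also known as PLT3 and one of the PLETHORA factors that maintain the root stem cells, at 28.0, 5.83 and 12.4 FPM in the 0 h cells and at 701, 437, 272 and 219 FPM in the 16 h cells, a difference of 4.69. Without 16 h replicate 4 the median of the list was -5.58.

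In 16 h replicate 1 several stele and xylem transcripts were far higher than in the other 16 h cells. WOL, the cytokinin receptor, was at 125, 44.8 and 37.8 FPM in the 0 h cells and at 99.7, 2.44, 1.06 and 0.257 FPM in the 16 h cells. TMO5, a bHLH factor of vascular cell division, was at 51.0, 382 and 2.07 FPM in the 0 h cells and at 95.0, 0, 0 and 1.11 FPM in the 16 h cells. VND7, a NAC factor of protoxylem vessels, was at 0.945, 232 and 0.640 FPM in the 0 h cells and at 89.0, 0, 0 and 0.599 FPM in the 16 h cells, so it was high in 1 cell of each time. These 3 genes were therefore not called. In VND7 the middle 0 h cell, at 0.945 FPM, was also too low for a 4-fold difference. With both first libraries left out, which removes the 16 h cell where they were high, each was called lower. The call of VND7 then rested on 232 FPM in 0 h replicate 2, as 0 h replicate 3 was at 0.640 FPM against 0.599 FPM in 16 h replicate 4. LHW, the partner of TMO5, was at 26.7, 11.7 and 40.4 FPM in the 0 h cells and at 4.06, 21.4, 2.27 and 10.7 FPM in the 16 h cells and overlapped between the times. ACL5, a thermospermine synthase that delays xylem death, was at 49.1, 0.107 and 16.9 FPM in the 0 h cells and at 0.167, 0.0853, 0 and 0 FPM in the 16 h cells and overlapped through 0 h replicate 2. The meristematic xylem markers of the study gave 4 called lower and 0 higher of 11 tested, with a median of -4.59. Without both first libraries 7 of 9 were called lower, beside 10.0% over all genes in that setting. These markers were picked in the study for how much they tell about a tissue in reference profiles, and not on the 16 h cells.

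Of the remaining marker genes, from tissues outside the stele and from xylem and phloem within it, most were listed at 0 and SUC2 was high in 1 cell. VND6 (xylem), APL (phloem), SCR and CASP1 (endodermis), CO2 (cortex), WER and COBL9 (epidermis), and SMB and BRN1 (root cap) were listed at 0 in all 7 cells. GL2, an epidermal gene, was at 4.65 FPM in 16 h replicate 1 and at most 0.256 FPM elsewhere. WOX5, the marker of the QC, was at 5.24 FPM in 0 h replicate 1 and 1.51 FPM in 16 h replicate 1, and at 0 in the other 5 cells. SUC2, the sucrose carrier of phloem companion cells, was at 332 FPM in 16 h replicate 4 and at most 4.82 FPM in the other 6 cells. At 0 h the stele genes WOL, ATHB8, SHR and PHB were present in all 3 cells. At 16 h SHR was listed at 0 in all 4 cells and ATHB8 was at most 7.16 FPM, while WOL was at 99.7 FPM in replicate 1 and PHB was at 13.7 and 14.2 FPM in replicates 2 and 4.

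**Figure D5:**
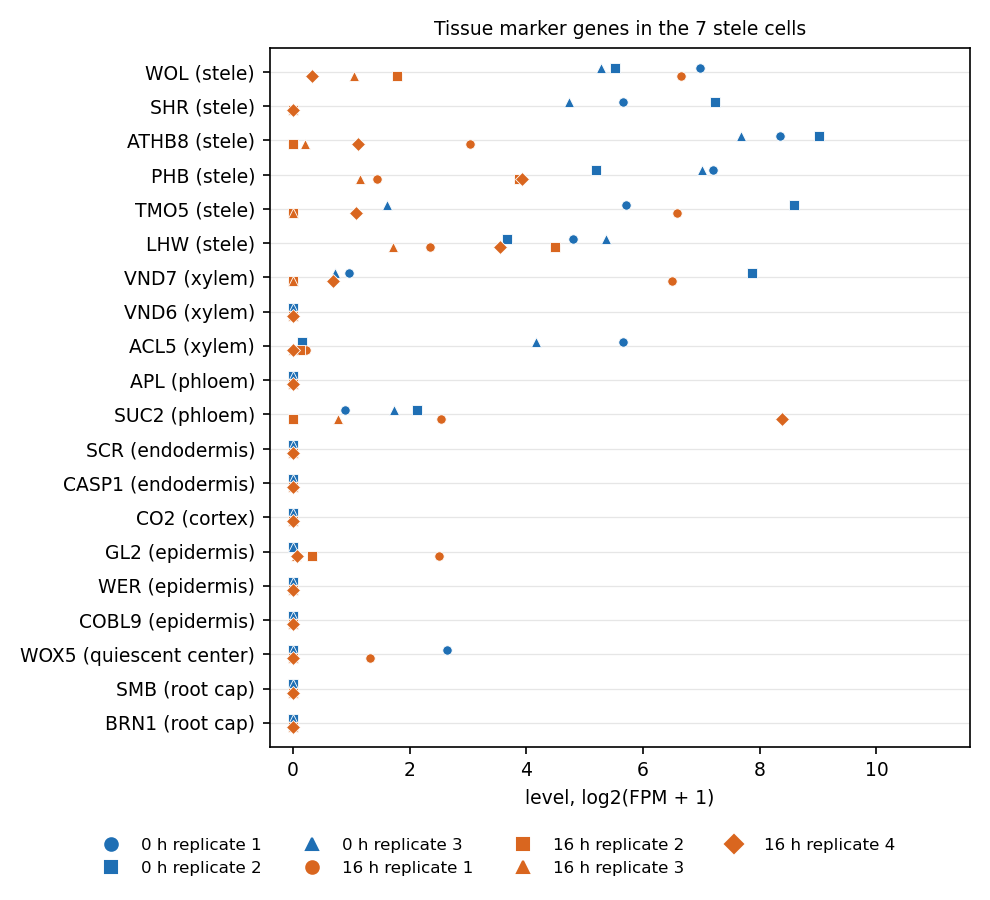
Levels as log2(FPM + 1) of the tissue marker genes, with 1 marker per cell, blue for 0 h and orange for 16 h. SHR, ATHB8 and PHB have every blue marker to the right of every orange one. For WOL, TMO5 and VND7 the orange circle, 16 h replicate 1, lies among the blue markers and the other orange ones lie to their left. SUC2 is high in 16 h replicate 4 alone, at 332 FPM, and the genes of endodermis, cortex and root cap lie at 0.

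The remaining marker blocks, which include phloem and other tissues of the stele, each had at most 5 tested members of 19 to 28. Protophloem gave 1 called higher and 1 lower of 5, with NAT7, a nucleobase transporter, at 1.29, 1.07 and 0.0492 FPM in the 0 h cells and at 129, 70.4, 271 and 36.3 FPM in the 16 h cells. Late phloem-pole pericycle gave 1 called higher of 5, companion cells 1 higher of 4, pericycle 1 higher of 1, phloem 1 lower of 1, columella 1 lower of 4 and QC 1 higher of 3. The blocks of trichoblasts, atrichoblasts, cortex, lateral root meristem, protoxylem, endodermis and late xylem-pole pericycle gave 0. The list of phloem genes gave 1 called lower of 5, NAC045. Genes of the chloroplast and mitochondrial genomes were listed at 0 in all 7 cells.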

How the data were processed

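Single-cell polyA cDNA was sequenced by the authors as single-end 50-base reads and aligned to TAIR10 with Bowtie2, both named in the study's notes. The deposited values are log2 of depth-normalized reads plus 1, as made by the authors for each locus, with reads of several alignments counted in parts and genes of low coverage set aside. Here the log2 was undone, the CFP and GFP rows were left out, and each library was scaled to a total of 1000000 (FPM). The undone values were multiples of a step in each library, taken here as 1 read; with that step 100% of values under 1000 reads were whole within 0.05 in all 7 libraries, and read totals come from it. The pseudocount was 1 FPM. All 31 per-sample columns were mapped to samples by their names, and 0 were left unused. Since the cells of a time count as 1 sample, no test was run.

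Members and lists were chosen with earlier results of these data known, so no list is independent support. The 76 gene lists and 15 tissue marker blocks were matched by symbol, product or locus, with a few symbols set to loci by hand; 20 symbols had no locus and 1 was ambiguous. Gene names came from the TAIR10.1 annotation, which matched 31912 of 32678 loci. Genes named are the 12 largest differences in each direction among called genes above 0 in both first libraries, up to 4 called members per list and direction, and the tissue markers. Some genes that met this rule are not reported here. List medians are given for the 18 lists with at least 10 tested members and a median at least 1 from that of all genes, a rule chosen after values were seen.

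No filter on cells and no doublet caller was used, since cells were picked by hand. The alternatives were other pseudocounts (0.1 and 10 FPM), filters, folds (2 and 8), means, median ratio scaling, thinning to the lowest library total and leaving out each cell. Leaving out both first libraries was added after seeing the data. The computations were tested on simulated data. Python 3.11.15, numpy 2.4.6, pandas 2.3.3 and matplotlib 3.10.9 were used.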

Additional observations from a re-analysis of the deposited data

Results flagged for a closer look

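In 21 of 195 named genes looked at, 1 of the 4 cells at 16 h lay far from the other 3, by Dixon's limit for a group of this size. That limit is set to be passed by about 1 in 20 groups of independent values from a normal distribution. The genes looked at were mostly named because they were called. In some, such as NAC076 and WOX5, all 16 h cells were at 1.51 FPM or less. The flagged share therefore cannot be compared with 1 in 20, and no excess over chance is read from it. Replicate 1 stood apart in MYC2 (1.34 FPM), HAT14 (8.04 FPM), AT1G67720 (0.502 FPM), AT1G48330 (2.72 FPM), NAC105 (13.4 FPM), TMO5 (95.0 FPM), VND7 (89.0 FPM), GL2 (4.65 FPM) and WOX5 (1.51 FPM). Replicate 2 stood apart in AT5G10020 (42.7 FPM), AT1G76640 (41.4 FPM), AT2G40316 (25.2 FPM) and MPK2 (8.55 FPM). Replicate 3 stood apart in AT3G19200 (24.8 FPM), AT1G76240 (29.3 FPM), JAZ5 (25.7 FPM) and mtHsc70-1 (82.6 FPM). Replicate 4 stood apart in RPS1 (2.52 FPM), NAC076 (1.50 FPM), DELTA-TIP (1.32 FPM) and LEP (1.24 FPM).

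The GFP row, which no comparison used, was present in all 7 cells although the labels name a CFP reporter for them. Its lowest value was 13.91 on the deposited log2 scale, in 0 h replicate 1, where CFP was at 14.07.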

How the results depend on the processing

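No called gene was called in the opposite direction under median ratio scaling or with thinning. Under the other alternatives the levels stay the same, and the rule of no overlap makes an opposite call impossible. The 555 and 688 genes called higher and lower became 269 and 379 with a pseudocount of 10 FPM, 883 and 1245 with a filter of 1 FPM, 883 and 1246 with no filter, and 1447 and 1681 where the times were allowed to overlap. Genes called higher numbered 352 among those above 0 in both first libraries and 846 with both left out. Leaving out each cell in turn gave 564 to 802 higher and 749 to 943 lower, with fewer cells to overlap. Median ratio scaling gave 604 higher and 599 lower.

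The UDP-glycosyltransferase median turned to 0.11 with no filter and ran from -2.43 to 0.016 without single cells. The expansin median turned to 0.023 with a filter of 1 FPM, was 0 with none and -0.20 without both first libraries, and ran from -2.82 to -0.46 without single cells. With a pseudocount of 10 FPM the medians were -1.58 for arabinogalactan proteins, -2.42 for auxin transport, -2.07 for meristematic xylem markers, -0.78 for gibberellin and brassinosteroid, -2.53 for stem cell factors and -0.71 for sugar transporters. With 0.1 FPM auxin transport was at -5.90 and meristematic xylem at -6.27. With a filter of 1 FPM meristematic xylem was at -3.52 and stem cell factors at -2.36, and with none they were at -2.79 and -1.38 and arabinogalactan proteins at -2.11. With means, auxin transport was at -3.82 and meristematic xylem at -3.44. Without both first libraries the abscisic acid response was at 0.85, auxin transport at -4.11 and stem cell factors at -3.34. Without single cells auxin transport ran from -5.26 to -3.52, stem cell factors from -5.58 to -3.44, sugar transporters from -1.69 to -0.42 and tubulins from -1.88 to -1.15. The causes were not tested. Of 214 named genes that were called, 139 kept the call without each cell in turn, 75 lost it without at least 1 cell and 18 lost it without both first libraries.

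No paired analysis was possible because replicate numbers only name cells and no test was run. At 0.0284 to 0.0859 FPM per read, depth limits only the lowest values.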
